A study of Mus musculus with 6 samples.

Results

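The respiratory chain was followed here through 84 genes of the 33696 in the deposited tables. Members were all genes whose symbol begins with mt-Nd, mt-Co, mt-Atp or mt-Cytb, all Ndufa, Ndufb, Ndufc, Ndufs and Ndufv genes with a number, all Uqcr genes, Sdha to Sdhd, and the numbered genes Cox4 to Cox8. Of these, 13 are encoded in the mitochondrial genome and 71 in the nucleus. The mitochondrial members comprise 7 subunits of complex I, 1 of complex III, 3 of complex IV and 2 of the ATP synthase. By symbol, the nuclear members comprise 38 genes of complex I, 4 of complex II, 8 of complex III and 21 of complex IV, with Ndufa4 and Ndufa4l2 counted in complex IV.

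The respiratory chain sits in the inner mitochondrial membrane and passes electrons from NADH and succinate to oxygen while pumping protons, which the ATP synthase then uses to make ATP. Complexes I, III and IV are built from subunits of both genomes, whereas complex II, succinate dehydrogenase, is entirely nuclear. Complex IV, cytochrome c oxidase, has alternative nuclear subunits that differ between tissues, known mainly from heart, skeletal muscle, lung and testis. In the retina the mitochondria of photoreceptors are packed into the inner segment, away from the cell body, and the retinal pigment epithelium is known for its reliance on oxidative metabolism.

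The tissue was the posterior eye of the mouse (Mus musculus), sequenced by droplet single-cell RNA-seq. The tropicamide group received drops of tropicamide, a muscarinic antagonist that relaxes the ciliary muscle, 6 times at intervals of 10 min, and tissue was taken 1 h after the last drop. The saline group received saline drops at the same frequency and is called the contraction group by the submitters. Each group held 12 mice, each library pooled 4 right eyes, and there were 3 libraries per group. The labels name no strain, age or sex of the mice, and the pool, not the mouse, is the unit of replication. The series text has lens, cornea, iris and ciliary body cut away, whereas a label describes the tropicamide samples by a relaxed and the saline samples by a contracted ciliary muscle. The extraction text attached to the samples describes bone tissue and cell sorting, which goes against the eye labels. The cells themselves carried the markers of retina, pigment epithelium, choroid and sclera, and 198 cells carried those of corneal or conjunctival epithelium. The unnamed clusters B37 and B44 had Optc, known from ciliary epithelium, among their leading genes. Whether the smooth muscle-like class includes ciliary muscle was not tested.

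The 6 libraries held 66434 barcodes and 229624062 unique molecular identifiers (UMIs, each standing for 1 captured RNA molecule), with medians of 2188.5 to 2527.5 UMIs per barcode. After removal of 5968 presumed doublets and of 245 cells with over 20% mitochondrial UMIs, 60062 cells remained. Across libraries, 522 barcode sequences occurred more than once. Cells were clustered without any of the 84 members, and clusters were given class names with "-like" from marker genes. The members took 2.85%, 2.52% and 2.91% of all UMIs in the tropicamide libraries, against 2.40%, 2.14% and 2.72% in the saline libraries.

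Levels of single genes are given as CPM, UMIs of the gene per 1000000 UMIs of the class. One UMI is counted per molecule whatever its length, but capture differs between transcripts, so levels are compared between cells for the same gene and not between genes. Over all cells, mt-Atp6, a subunit of the ATP synthase, drew 700180 UMIs, the most of any member. The most counted member of complex I was mt-Nd4 at 1112 CPM. In complex II this was Sdha, the flavoprotein of succinate dehydrogenase, at 198 CPM. In complex III it was mt-Cytb, cytochrome b, at 2550 CPM and, among nuclear genes, the hinge protein gene Uqcrh at 307 CPM. In complex IV it was mt-Co3 at 2667 CPM and, among nuclear genes, Ndufa4 at 563 CPM. At the other end, the testis-type subunit gene Cox8c had 0 UMIs, Cox7b2 had 10, Ndufb11b 11 and the muscle-type Cox6a2 59. Counts of Ndufb4b, 663 UMIs, and Cox5b-ps, 398 UMIs, are uncertain because reads may be shared with near-identical copies.

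Rod-like cells, 49600 of the cells kept, carried little mitochondrial RNA. The 13 mitochondrial members made up 1.10% ± 0.20 of rod-like UMIs in tropicamide libraries and 1.04% ± 0.16 in saline libraries (SD, n = 3 each). The nuclear members made up 0.830% ± 0.028 and 0.838% ± 0.070 of those of tropicamide and saline libraries. In both measures the groups overlapped. The median rod-like cell held 5 mitochondrial and 16 nuclear member UMIs among 2069 UMIs.

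Cone-like cells, the other photoreceptor class, carried more. Mitochondrial members made up 4.95% ± 0.38 of their UMIs in tropicamide libraries and 4.94% ± 0.79 in saline libraries (SD, n = 3 each). Nuclear members made up 1.60% ± 0.13 in tropicamide and 1.75% ± 0.17 in saline libraries. The limit of 20% mitochondrial UMIs removed 66 of 539 cone-like cells, 12.2%, but 72 of 49672 rod-like cells, so the cone-like share depends on it. With no limit the mean over the 6 libraries was 5.65%, and with a limit of 10% it was 4.02%, against 4.94% as reported. The class joins clusters B8 and B21, with medians of 7056.5 and 1608 UMIs per cell before that limit. The part of their mix in the nuclear share of the class was not tested.

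The retinal pigment epithelium-like (RPE-like) class, 1875 cells, was the named class in which nuclear members outnumbered mitochondrial ones in all 6 libraries. Nuclear members made up 3.47% ± 0.12 of its UMIs in tropicamide and 3.57% ± 0.16 in saline libraries, and mitochondrial members 2.83% ± 0.32 and 2.93% ± 0.16 in tropicamide and saline libraries (SD, n = 3 each). Per library this came to 0.737 to 0.868 mitochondrial UMIs for each nuclear member UMI. The same ratio was 2.67 to 3.14 in cone-like cells and 1.08 to 1.47 in rod-like cells, whereas amacrine-like cells crossed 1, at 0.545 to 1.59.

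The inner retina and the vessels followed. Rod bipolar-like cells held 2.80% mitochondrial member UMIs in tropicamide and 2.98% in saline libraries, and cone bipolar-like cells 1.97% and 2.0%. Smooth muscle-like cells held 3.15% ± 0.05 in tropicamide and 3.81% ± 0.71 in saline libraries, with ranges that did not overlap. This class joins clusters B10 and B27, with median mitochondrial shares of 3.40% and 2.42% per cell, and their mix differed between libraries. Müller glia-like cells also separated by group, at 2.004% to 2.78% in tropicamide and 1.47% to 1.88% in saline libraries, and they are described further with the treatment. Fibroblast-like and endothelial-like cells lay near 2% in each group. The 28 erythroid-like cells, whose mature form has no mitochondria, held 0.228% to 0.760% mitochondrial member UMIs over the 5 libraries that had any. The top value came from the 2 cells of saline replicate 2. The median rod-like cell, at 0.265%, lay within that range. The part of rod-like cells with the least mitochondrial RNA, described below, held only 290 to 1040 CPM of these members per library. Those cells were chosen by their low mitochondrial share, so their values cannot show the level of stray RNA. Whether the erythroid-like range marks a floor for stray RNA was not tested. The part of free RNA in the rod-like shares was not tested either. These are shares of RNA: more mitochondria, more transcripts per mitochondrion and less of other RNA cannot be told apart in them.

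**Figure D1:**
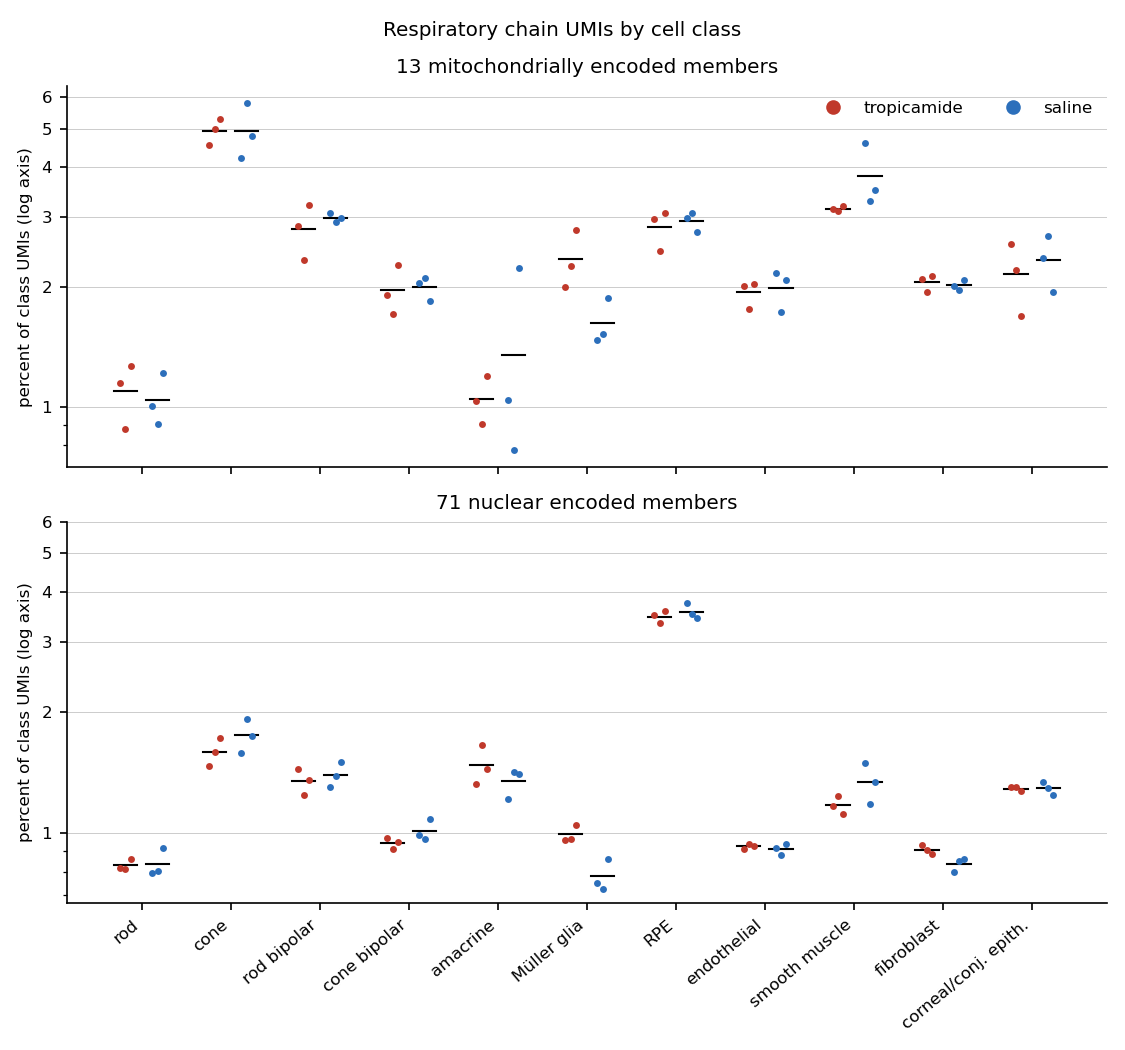
Percent of each class's UMIs (log axis) from the 13 mitochondrial members (top) and the 71 nuclear members (bottom), with 1 point per library, tropicamide in red left of saline in blue, and black bars at group means (n = 3 each). Among the 11 classes plotted, RPE-like cells stand highest for nuclear members, at 3.34% to 3.74%, and cone-like cells for mitochondrial members, at 4.23% to 5.80%.

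Each class was then set against the mean of 12 other classes, gene by gene, where each library had to hold at least 10 cells of a class, in edgeR's quasi-likelihood model with Benjamini-Hochberg adjustment over 12170 genes. Of the members, 77 passed the filter on low counts. In RPE-like cells 76 of the 77 were higher and none was lower, where 63.1% of all tested genes were called in either direction and 32.1% as higher. The nuclear members had a median log2 difference of 2.10 and the mitochondrial members of 0.96, against -0.22 for all genes. All 36 tested genes of complex I, all 4 of complex II, all 8 of complex III and 15 of 16 of complex IV were called higher. In related lists, all 17 nuclear ATP synthase subunits were higher (median 2.28), assembly factors gave 27 higher and 3 lower of 37 tested (median 0.83), and genes of mitochondrial gene expression, a list that also holds nuclear regulators such as Yy1 and Ppargc1b, gave 3 higher and 4 lower of 17. With DESeq2 size factors in place of TMM the median of all genes in this comparison moved to -0.88, and of the members 68 were higher and 1 lower, with medians of 1.48 for nuclear and 0.35 for mitochondrial members.

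Outside the isoform sets, the widest differences in RPE-like cells belonged to Ndufv3 and Uqcr11, small accessory subunits of complexes I and III. Ndufv3 stood at 854, 806 and 891 CPM in tropicamide and 815, 932 and 759 CPM in saline libraries, a log2 difference of 3.33 ± 0.07 from the other classes (SE, adjusted p = 2.2e-57). Uqcr11 averaged 1001 ± 75 CPM (SD, n = 6) with a log2 difference of 3.32. Sdha, by contrast, averaged 117 ± 10 CPM with a difference of 0.54 (adjusted p = 1.9e-07).

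Rod-like cells showed the reverse for most members. Of the 77, 59 were lower and 10 higher, where 74.0% of all tested genes were called, 25.2% as lower and 48.8% as higher. The mitochondrial members were all 13 lower, with a median log2 difference of -0.92, and the nuclear members had a median of -0.72, against 0.25 for all genes. Every called nuclear gene of complex IV was lower (13 of 16 tested), and in complex I 28 were lower and 6 higher of 36. Complex II went the other way, with Sdha, Sdhc and Sdhd higher and Sdhb, the iron-sulfur subunit, lower by 0.25. Assembly factors were higher in 26 and lower in 8 of 37 tested, and genes of the list for mitochondrial gene expression higher in 14 and lower in 1 of 17. With DESeq2 size factors the median of all genes was 0.46, and 15 members were higher and 52 lower. Nuclear-retained RNAs such as Malat1 summed to 38535 to 46055 CPM per library in the rod-like cells with the most mitochondrial RNA. In those with the least they summed to 49792 to 56254 CPM. The part of RNA retention in the differences between rod-like cells and the other classes was not tested.

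Members that were higher in rod-like cells included Ndufs1, Sdha and Ndufa10. Ndufs1, the largest core subunit of complex I, averaged 142 ± 3.9 CPM (SD over the 6 libraries) with a log2 difference from the other classes of 1.35, and Ndufa10, an accessory subunit, 247 ± 9.9 CPM with 1.18. Sdha averaged 280 ± 12 CPM with a log2 difference of 1.22 ± 0.07 (SE, adjusted p = 1.0e-28). At the low end stood mt-Co1, the catalytic subunit of complex IV, with 732, 591 and 755 CPM in tropicamide and 651, 534 and 730 CPM in saline libraries, a difference of -2.24. Uqcr11 stood at -2.05 (47.5 ± 2.7 CPM) and the complex I accessory gene Ndufa13 with -1.77 (80.4 ± 8.9 CPM).

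In cone-like cells all 13 mitochondrial members were higher, with a median log2 difference of 0.85, while the nuclear members were split into 22 higher and 10 lower of 64 (54.0% of all genes were called, 28.3% as higher). The widest were mt-Nd5 with 1.19 and mt-Co1 with 1.10 (7046 ± 956 CPM, n = 6). Amacrine-like cells had all 13 mitochondrial members lower, with a median of -1.47, and mt-Co3 lowest at -1.72 (46.0% of all genes were called, 20.4% as lower). In 1 of their libraries, tropicamide replicate 2, the summed markers of pigment epithelium stood at 2465 CPM against 56.6 to 248 CPM in the other 5, and their part in the amacrine-like values was not tested. Müller glia-like cells had 3 nuclear members higher and 49 lower of 64, among them Cox5a (-1.41), Ndufv3 (-1.30), Ndufa4 (-1.26) and Ndufb8 (-1.18), where 51.7% of all genes were called, 19.3% as lower. In corneal or conjunctival epithelium-like cells Ndufa4 averaged 1488 ± 213 CPM with a difference of 1.70, followed by Uqcrc1 (1.18), Cox6b1 (1.18) and Cox7a2l (1.02), with 61.4% of all genes called. In several classes the split of the nuclear members depended on the scaling. With TMM, 6 were higher and 18 lower in amacrine-like cells, 1 and 51 in cone bipolar-like (56.1% of all genes called), 6 and 26 in rod bipolar-like (46.1%), 22 and 11 in smooth muscle-like (50.5%) and 42 and 6 in corneal or conjunctival epithelium-like cells, each of 64 tested. The counts of nuclear members called in rod bipolar-like, smooth muscle-like and cone-like cells lay near the share of all genes. With DESeq2 size factors these were 16 and 7, 12 and 22, 20 and 9, 8 and 27, and 26 and 19, while the median of all genes in these classes stood at 0.19, 0.47, 0.17, -0.07 and -0.36. Müller glia-like cells had 9 higher and 40 lower and cone-like cells 31 and 8 with DESeq2 size factors. The 13 mitochondrial members kept their direction in cone-like, amacrine-like and rod-like cells, but not in every class. In cone bipolar-like cells 0 higher and 12 lower became 1 and 4 with DESeq2 size factors. In rod bipolar-like cells 2 and 7 became 5 and 4, and in corneal or conjunctival epithelium-like cells 7 and 0 became 0 and 1. Endothelial-like cells had 6 nuclear members higher and 37 lower with TMM (63.6% of all genes called) and fibroblast-like cells 6 and 35 (67.2%). These counts too lay near the share of all genes. With DESeq2 size factors they were 4 and 52 in endothelial-like and 4 and 51 in fibroblast-like cells.

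The alternative subunits of complex IV differed between classes in where they were counted. Cox8b, the form of subunit VIII known from heart and skeletal muscle, was concentrated in RPE-like cells, where it stood at 1244, 955 and 899 CPM in tropicamide and 1839, 1697 and 1459 CPM in saline libraries. The log2 difference from the other classes was 9.94 ± 0.18 (SE, adjusted p = 4.5e-62). In rod-like cells it averaged 1.80 ± 1.32 CPM, in fibroblast-like cells 1.19 ± 0.96 and in cone-like cells 0.935 ± 2.29 (SD, n = 6), levels at which free RNA from RPE-like cells cannot be told apart from expression. Its partner Cox8a, the form used in most tissues, was also highest in RPE-like cells among the named classes. It stood at 3218 ± 246 CPM with a difference of 2.87. Cox8b thus gave 21.6% to 33.8% of the UMIs of the pair per library in RPE-like cells. Cluster B21 of the cone-like class, 108 cells, averaged 3983 ± 419 CPM of Cox8a. Cox6b2, a form of subunit VIb known from testis, averaged 99.98 ± 7.3 CPM in RPE-like cells with a difference of 4.46. It was not particular to them. Over the pooled libraries the 30 melanocyte-like cells held 78.5 CPM of Cox6b2, from 25 UMIs. The 26 cells of unnamed cluster B44 held 150 CPM each of Cox6b2 and Cox8b, from 10 UMIs each. These small groups were not tested.

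The promoters of Cox8b and Cox8a are shown because later results return to this pair. They are RefSeq windows of 300 bases, 250 before and 50 after the start of the gene, read 5′ to 3′ in the direction of the gene, and their build, GRCm38.p6, is not the GRCm39 of the counts. Cox8b lies at chr7:140900397-140900696 and Cox8a at chr19:7217567-7217866, both on the minus strand. Capitals mark matches to CCGGAAG, a core of the sites of GA-binding protein, searched on both strands, and here both matches lie on the strand opposite to the printed one.
Cox8b: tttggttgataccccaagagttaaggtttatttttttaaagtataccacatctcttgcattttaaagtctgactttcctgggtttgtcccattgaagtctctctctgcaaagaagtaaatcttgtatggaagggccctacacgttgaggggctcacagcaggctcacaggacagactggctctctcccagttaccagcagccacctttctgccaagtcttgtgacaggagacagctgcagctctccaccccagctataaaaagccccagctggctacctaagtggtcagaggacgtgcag
Cox8a: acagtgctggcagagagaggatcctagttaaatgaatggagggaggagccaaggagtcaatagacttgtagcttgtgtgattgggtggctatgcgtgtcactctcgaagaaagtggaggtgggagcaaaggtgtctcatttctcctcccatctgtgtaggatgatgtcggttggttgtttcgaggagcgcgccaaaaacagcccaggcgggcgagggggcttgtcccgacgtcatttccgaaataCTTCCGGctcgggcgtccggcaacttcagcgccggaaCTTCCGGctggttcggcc

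The Cox8a window held 2 such matches and the Cox8b window none, nor did it hold any of the 5 other motifs searched on both strands. Those were the palindromic core of nuclear respiratory factor 1, AAGATGGC of YY1, AAGGTCA of the estrogen-related receptors, TCACGTG of MITF and TAATCC of OTX factors. Of the 71 nuclear members, 55 had a window in the table. CCGGAAG occurred in 11 of these 55 (20%) and in 9.12% of all 27025 promoters, AAGATGGC in 7 (12.7%) against 2.88%, and the core of nuclear respiratory factor 1 in 3 (5.45%) against 0.977%. AAGGTCA occurred in 4 (7.27%) against 4.66%, TCACGTG in 2 (3.64%) against 3.84% and TAATCC in 6 (10.9%) against 7.16%. A match describes the letters only.

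Cox4i2 and Ndufa4l2 were both abundant in pericyte-like and smooth muscle-like cells. Cox4i2 is the form of subunit IV known from lung and for its part in oxygen sensing, and Ndufa4l2 is known as a hypoxia-induced relative of Ndufa4. In pericyte-like cells, 102 in all, Ndufa4l2 averaged 1475 ± 312 CPM and Cox4i2 715 ± 164 CPM (SD, n = 6), with log2 differences of 7.81 and 6.37, whereas Ndufa4 averaged 132 ± 78 CPM with a difference of -2.59. This class entered only a comparison that also admitted classes with 5 to 9 cells in a library, in which 24.8% of all genes were called. Ndufa4l2 gave 82.6% to 95.6% of the UMIs of the Ndufa4 pair in its 6 libraries.

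In smooth muscle-like cells Ndufa4l2 had 382, 391 and 225 CPM in tropicamide and 438, 244 and 482 CPM in saline libraries (difference 6.52, adjusted p = 3.4e-51). Cox4i2 averaged 200 ± 62 CPM there (5.31), and Cox6b2 36.8 ± 16.0 CPM (2.31). Of all genes, 50.5% were called in that class. It joins clusters B10, led by Acta2, Tagln and Myh11, and B27, led by Tagln, Hs3st3a1 and Serpine2. Before the limit on mitochondrial UMIs, B27 gave 29, 32 and 27 cells in tropicamide and 4, 15 and 21 in saline libraries. B10 gave 91, 81 and 32 cells in tropicamide and 20, 15 and 92 in saline libraries. The part of this mix in the values of the class was not tested. Endothelial-like cells held 32.8 ± 21.8 CPM of Ndufa4l2 (2.94) and 22.8 ± 10.4 CPM of Cox4i2 (2.04), and fibroblast-like cells 46.1 ± 11.8 CPM of Ndufa4l2 (3.52).

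Müller glia-like cells carried mainly Cox4i2 of this pair of alternative forms. Cox4i2 stood at 447, 379 and 494 CPM in tropicamide and 349, 415 and 399 CPM in saline libraries, a log2 difference of 6.33 ± 0.16 (SE, adjusted p = 3.1e-50), and it gave 42.5% to 55.1% of the UMIs of the Cox4i1 pair. Ndufa4l2 averaged 19.0 ± 14.4 CPM in the same cells, with a difference of 1.58 (adjusted p = 0.00063), and Cox6b2 73.5 ± 14.3 CPM. Both clusters of the class carried Cox4i2, at 355 CPM in cluster B9 and 1041 CPM in cluster B20 over the pooled libraries. Rod-like cells, by comparison, averaged 1.49 ± 0.48 CPM and cone-like cells 1.49 ± 2.57 CPM.

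**Figure D2:**
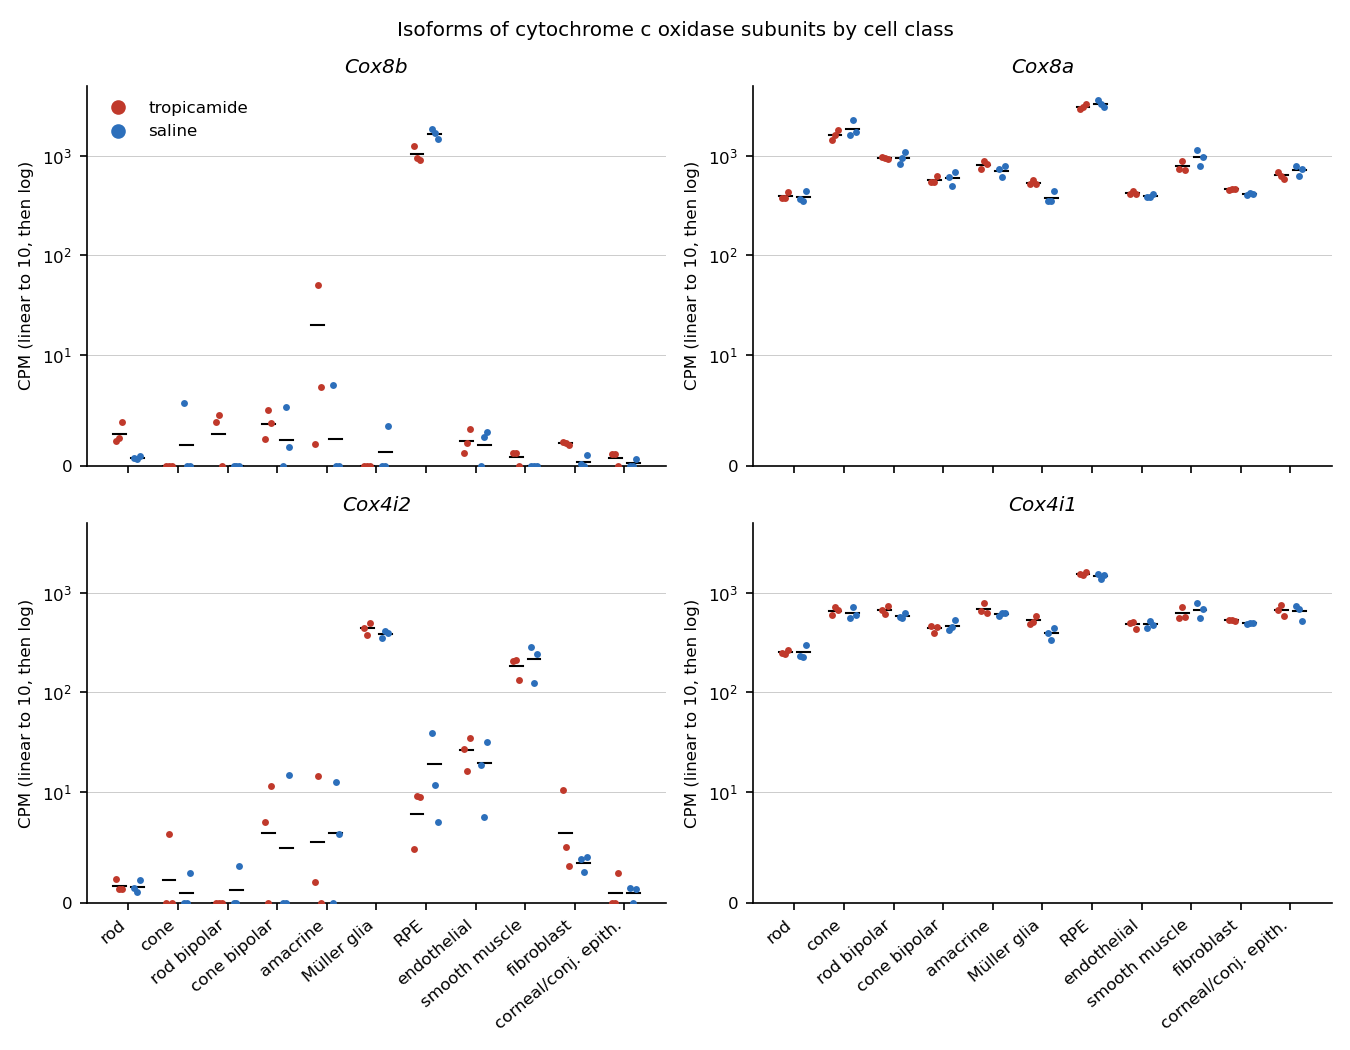
CPM of Cox8b, Cox8a, Cox4i2 and Cox4i1 in each class (axis linear to 10, logarithmic above), 1 point per library, tropicamide in red left of saline in blue, bars at group means. Cox8b stands at 899 to 1839 CPM in RPE-like cells, and Cox4i2 at 349 to 494 CPM in Müller glia-like and 124 to 284 CPM in smooth muscle-like cells, while Cox8a and Cox4i1 appear in every class.

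Mitochondrial transcripts did not keep 1 proportion in all classes. Mitochondrial members are cut from long shared precursors, with mt-Nd6 alone on that of the opposite strand, and the ratio of mt-Co1 to mt-Atp6 UMIs was taken as a simple description of their balance, chosen after the values were seen. In rod-like cells there were 0.244 to 0.284 mt-Co1 UMIs per mt-Atp6 UMI over the 6 libraries. In smooth muscle-like cells the ratio was 0.411 to 0.503, in endothelial-like cells 0.561 to 0.714 and in cone-like cells 0.685 to 0.928. Bipolar-like cells were highest, with 1.07 to 1.46 in cone bipolar-like and 1.18 to 1.37 in rod bipolar-like cells, so that the ranges of rod-like and bipolar-like cells were far apart.

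In the test gene by gene the pair parted within bipolar-like cells. In rod bipolar-like cells mt-Co1 was higher than in the other classes by a log2 value of 0.43 (adjusted p = 0.0035) while mt-Atp6 was lower by 0.66, with 46.1% of all genes called. In cone bipolar-like cells mt-Atp6 differed by -1.05 and mt-Co1 by 0.00 (adjusted p = 1.0), with 56.1% called. These differences used TMM scaling. With DESeq2 size factors the median of the 13 mitochondrial members moved from -0.36 to -0.03 in rod bipolar-like and from -0.55 to -0.06 in cone bipolar-like cells. The ratio of the pair does not depend on the scaling. Rod-like cells with the most and the least mitochondrial RNA had ratios of 0.237 to 0.277 and 0.297 to 0.439, both below the cone-like and bipolar-like ranges. The ratio in the erythroid-like cells, 0.760 to 1.83, rests on few UMIs.

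**Figure D3:**
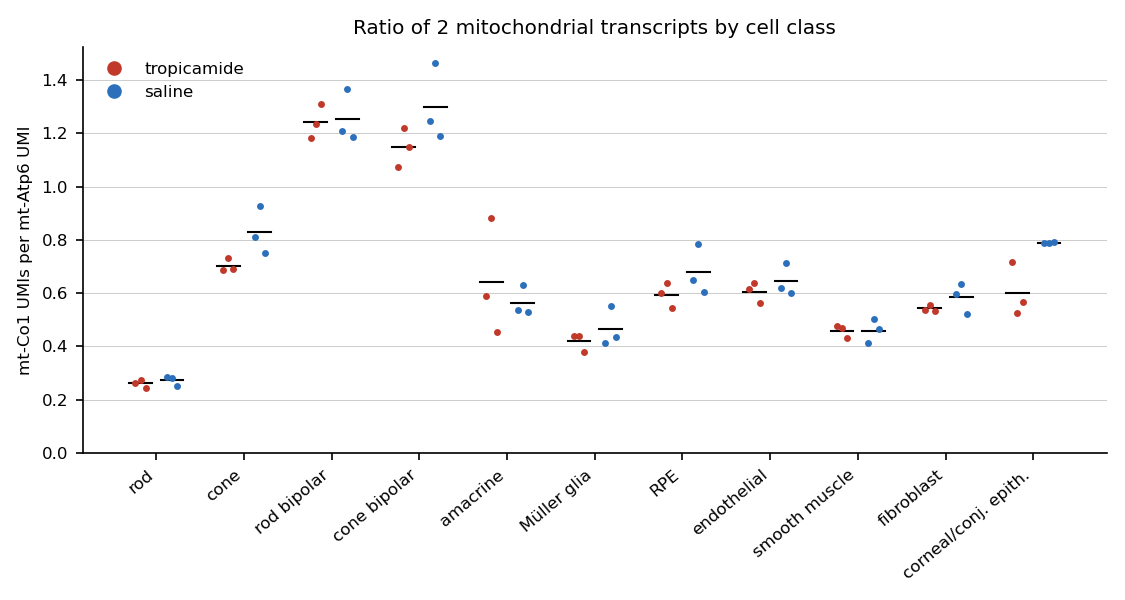
Number of mt-Co1 UMIs per mt-Atp6 UMI in each class and library, tropicamide in red left of saline in blue, bars at group means (n = 3 each). Rod-like cells lie at 0.244 to 0.284 and rod bipolar-like cells at 1.18 to 1.37, with no overlap.

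Within rod-like cells, nuclear members followed mitochondrial RNA. In each library the rod-like cells were cut into 3 equal parts by their share of mitochondrial member UMIs. The part with the most held a median of 44 mitochondrial member UMIs per cell, the part with the least 1, while median total UMIs were 2126 and 2105. Mitochondrial genes, which chose the cells, were left out of the counts and are not tested. Of 65 nuclear members tested, 52 were higher and 1 lower in the highest part, where 15.3% of all tested genes were called higher and 23.7% in either direction. The median log2 difference was 0.49, against -0.0018 for all genes.

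The genes called higher belonged to complexes I, III and IV. In complex I 34 of 37 tested genes were higher, in complex III 6 of 8 and in complex IV 12 of 16. The 6 widest were Cox4i1 (0.98), Ndufa13 (0.97), Cox6c (0.93), Ndufa4 (0.92), Uqcrh (0.88) and Cox6b1 (0.88), 4 of them counted in complex IV. Cox4i1, the usual form of subunit IV, had 352, 343 and 396 CPM in the highest part of the tropicamide and 338, 328 and 459 CPM in that of the saline libraries. In the lowest part it had 193, 187 and 202 CPM in tropicamide and 183, 166 and 193 CPM in saline libraries, so that every library was higher in its own highest part (log2 difference 0.98 ± 0.04, SE, adjusted p = 2.3e-21).

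Of the 4 genes of complex II none was called higher. Sdha averaged 289 ± 13 CPM in the highest and 276 ± 16 CPM in the lowest part (SD, n = 6 each, log2 difference 0.07 ± 0.03, adjusted p = 0.13), and Sdhb 71.04 ± 2.8 and 71.7 ± 2.6 CPM (-0.01). Sdhc differed by 0.13 (adjusted p = 0.062). Sdhd, a membrane anchor, was lower at 52.8 ± 4.6 CPM in the highest and 58.2 ± 4.2 CPM in the lowest part (-0.14 ± 0.05, adjusted p = 0.040), in all 6 libraries. That call was lost with a minimum of 1000 UMIs per cell (-0.12, adjusted p = 0.087), without doublet removal (-0.10, adjusted p = 0.11), and when tropicamide replicate 2 (-0.13, adjusted p = 0.10) or saline replicate 1 (-0.15, adjusted p = 0.052) was left out. The other lowest values were those of the complex I genes Ndufs1 and Ndufs4 and the complex III genes Uqcrfs1 and Uqcrc2, with Ndufs1 (-0.02), Uqcrfs1 (0.00), Uqcrc2 (0.00) and Ndufs4 (0.01), none of which was called.

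Other lists were counted in the same comparison, with 15.3% of all genes higher and 23.7% called in either direction. All 17 nuclear ATP synthase subunits in the files were higher (median 0.52), and so were 6 of 7 other chain genes. Assembly factors gave 13 higher and 5 lower of 44 (median -0.015), and the list for mitochondrial gene expression 1 higher and 5 lower of 22. Nuclear-retained RNAs gave 0 higher and 2 lower of 4, with Malat1 at -0.17 and Kcnq1ot1 at -0.22, and stress-response genes gave 4 higher of 8, with Egr1 at 1.23 and Fos at 0.59. These values moved together with the member genes, and the part of RNA retention or stress in the difference was not tested.

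**Figure D4:**
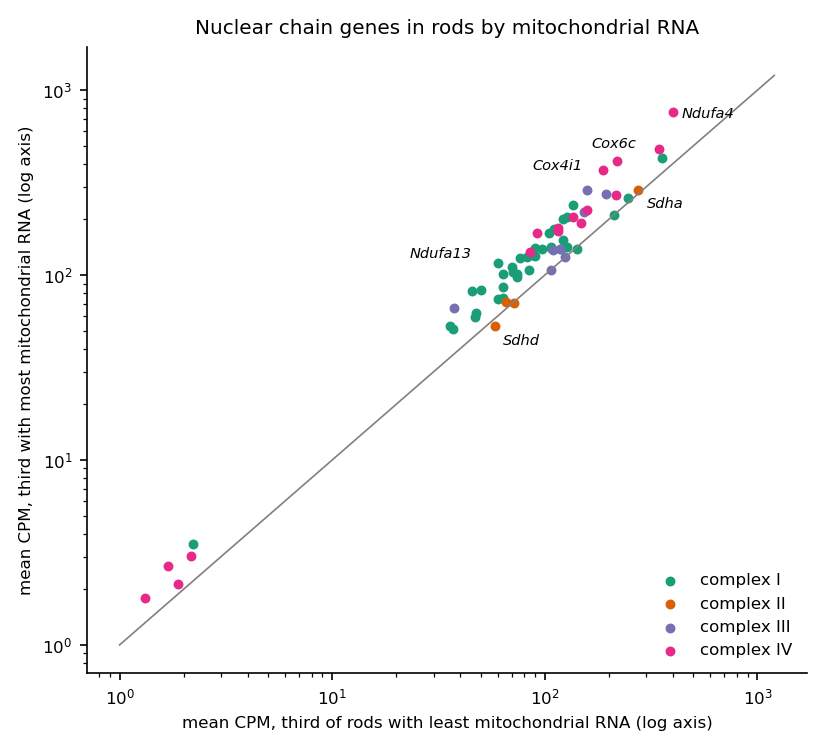
Mean CPM of each tested nuclear member in the part of rod-like cells with the most (vertical) and the least (horizontal) mitochondrial RNA, both on log axes, means of 6 libraries, coloured by complex, with the line of equality. Most points of complexes I, III and IV lie above the line, such as Cox4i1 at 370 and 187 CPM, and Sdhd of complex II lies below it at 52.8 and 58.2 CPM.

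Tropicamide was compared with saline within each class over the 6 libraries, for classes of which no library had under 30 cells. Nothing in the labels ties pools to separate litters or days, so p-values measure the spread between pools. In rod-like cells 5 of 80 tested members were called, 3 higher and 2 lower, where 10.3% of all tested genes were called, 5.62% as higher and 4.67% as lower. The median log2 change was 0.0027 for the members and -0.0034 for all genes.

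Among complex I genes in rod-like cells, mt-Nd5, a proton-pumping subunit, had 224, 196 and 247 CPM in tropicamide and 166, 155 and 192 CPM in saline libraries (log2 change 0.38 ± 0.09, SE, adjusted p = 0.024). Its tropicamide libraries were all above its saline libraries. Ndufa9, an accessory subunit near the quinone site, fell to 62.8, 59.8 and 61.6 CPM in tropicamide, against 70.7, 71.1 and 71.1 CPM in saline libraries (-0.21 ± 0.05, adjusted p = 0.025), and the accessory gene Ndufb2 to 69.0, 61.1 and 65.0 CPM, against 73.1, 75.2 and 79.1 CPM (-0.22 ± 0.06, adjusted p = 0.038). Neither overlapped between groups. These calls were near the threshold: mt-Nd5 was lost without tropicamide replicate 1 or 3 or saline replicate 1 or 2 (adjusted p = 0.075 to 0.086), Ndufa9 without any 1 library except saline replicate 3 (0.056 to 0.12), and Ndufb2 without any 1 library except tropicamide replicate 1 (0.057 to 0.17).

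Cox8b had the widest change of the 5 members called in rod-like cells. It had 2.20, 2.54 and 3.97 CPM in tropicamide libraries, from 30, 49 and 76 UMIs, and 0.665, 0.626 and 0.871 CPM in saline libraries, from 11, 12 and 16 UMIs (log2 change 2.02 ± 0.30, adjusted p = 0.0037). Markers of pigment epithelium moved with it. All 10 marker genes were detected in rod-like cells, and their summed level there was 242, 486 and 366 CPM in tropicamide and 71.1, 66.3 and 133 CPM in saline libraries. Per 1000 UMIs of these markers, rod-like cells held 9.10, 5.21 and 10.7 Cox8b UMIs in tropicamide and 9.35, 9.46 and 6.63 in saline libraries, with overlapping groups. In RPE-like cells the same measure was 6.3, 4.8 and 4.9 in tropicamide and 10.4, 9.1 and 7.8 in saline libraries. RPE-like cells themselves made up 3.19%, 5.71% and 4.96% of cells in tropicamide and 1.05%, 0.744% and 1.93% in saline libraries. The part of free RNA in the Cox8b value of rod-like cells was not tested.

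Within the part of rod-like cells with the least mitochondrial RNA, 5 of 66 nuclear members were called between tropicamide and saline, where 9.12% of all tested genes were called. Calls of mitochondrial members are left out for both parts, because their share chose the cells. Among them were Cox8b (2.04), Ndufa13 (0.30), Ndufa9 (-0.27) and Ndufb2 (-0.29). In the part with the most, edgeR called 0 of 65, with 6 at an unadjusted p under 0.05 and 2.96% of all genes called.

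Among genes outside the member set, 7 of 44 tested assembly factors were called in rod-like cells, 6 of them lower, where 10.3% of all genes were called and 4.67% as lower. Coa7 fell by 0.41, Cox10 by 0.29, Ecsit by 0.28 and Ndufaf6 by 0.22 on the log2 scale (adjusted p = 0.0049, 0.0094, 0.013 and 0.024). Cox10 makes haem O, the precursor of the haem A of complex IV, and the others take part in assembling complexes I and IV. In the list for mitochondrial gene expression 4 of 22 were called. Slirp, which binds mitochondrial mRNA, fell by 0.20 and Mterf1a, a mitochondrial transcription factor, rose by 0.25. The others, Yy1 (0.29) and the coactivator gene Ppargc1b (0.21), rose as well and act on transcription in the nucleus. None of the 17 nuclear ATP synthase genes was called by edgeR, and 1 had an unadjusted p under 0.05. Stress-response genes gave 2 lower of 8, Atf3 (-0.67) and Egr1 (-0.83), and of 6 nuclear-retained RNAs Neat1 rose by 0.32. The part of these in the member changes was not tested.

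In RPE-like cells 1 of 76 tested members was called, Cox8b, where 0.119% of all tested genes were called and 0.0989% as lower. It had 1345, 1012 and 944 CPM in tropicamide and 1887, 1812 and 1542 CPM in saline libraries after TMM scaling, and every tropicamide library lay below every saline library. The log2 change was -0.67 ± 0.10 (SE, adjusted p = 0.00036). Cox8a had 3185, 3264 and 3435 CPM in tropicamide and 3725, 3547 and 3226 CPM in saline libraries (-0.08 ± 0.08, adjusted p = 0.91), with overlapping groups. Ndufb4 and Ndufb1, accessory subunits of complex I, had the next smallest p, with -0.47 (adjusted p = 0.38) and -0.41 (adjusted p = 0.41). The class joins the large clusters B0 and B1 and the small cluster B34, which was not tested alone. Before the limit on mitochondrial UMIs, B34 gave 9, 25 and 39 cells in tropicamide and 4, 3 and 5 in saline libraries. Of the large clusters, B1 had more UMIs per cell. There Cox8b had 1318, 1018 and 945 CPM in tropicamide and 2012, 1907 and 1604 CPM in saline libraries. The log2 change of Cox8b in B1 was -0.75 ± 0.10 (edgeR, adjusted p = 3.7e-06, with 0.349% of genes called). In B0, Cox8b had 1679, 1201 and 1284 CPM in tropicamide and 1895, 2128 and 1908 CPM in saline libraries, again without overlap. The log2 change there was -0.53 ± 0.14 (edgeR, adjusted p = 0.56), where 0.0663% of genes were called. The change in RPE-like cells differed from that in rod-like cells by -2.63 ± 0.26 (interaction term, adjusted p = 2.0e-20, with 0.57% of genes called), and the rod-like side of that difference carries the markers described above.

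In Müller glia-like cells 5 of 74 tested members were called, all higher, where 1.86% of all tested genes were called and 1.17% as higher. Cox7a2l, a subunit that takes part in joining complexes III and IV, had 223, 226 and 240 CPM in tropicamide and 107, 123 and 153 CPM in saline libraries (0.86 ± 0.20, SE, adjusted p = 0.026). The mitochondrial genes mt-Atp6 (0.63, adjusted p = 0.031), mt-Co2 (0.60, adjusted p = 0.026), mt-Nd4 (0.56, adjusted p = 0.041) and mt-Co3 (0.54, adjusted p = 0.041) rose as well. For mt-Atp6 this was 4691, 5798 and 7172 CPM in tropicamide and 3610, 3179 and 4639 CPM in saline libraries. In these 5 genes the groups did not overlap, and the median over the members was 0.38, against 0.0056 for all genes.

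The make-up of this class differed between the groups. It consists of clusters B9, with a median of 6707 UMIs per cell, and B20, with 1005 UMIs per cell. B20 made up 47.1%, 47.0% and 47.6% of the class's cells in tropicamide and 21.1%, 23.1% and 20.4% in saline libraries, and mitochondrial members made up 9.87% of its UMIs in tropicamide and 9.04% in saline libraries. In B9 that share was 1.26% in tropicamide and 1.34% in saline libraries. Within B9 alone edgeR called 0 members, with 3 at an unadjusted p under 0.05 and 0.303% of all genes called, and within B20 alone it called 0, with 1 at an unadjusted p under 0.05 and 0.215% of all genes called. With a minimum of 1000 UMIs per cell, or a limit of 10% mitochondrial UMIs, the count was 0, and it was 8 when tropicamide replicate 1 was left out, 1 when tropicamide replicate 2 was, and 0 when tropicamide replicate 3, saline replicate 1 or saline replicate 2 was. With the unnamed cluster B37 added to the class the count was 0 in edgeR, with 39 at an unadjusted p under 0.05 and 3.74% of all genes called. In B9 Cox7a2l had 107, 115 and 115 CPM in tropicamide and 93.1, 104 and 120 CPM in saline libraries (0.10, adjusted p = 0.97). The change of Cox7a2l in the whole class differed from that in rod-like cells by 0.79 ± 0.21 (interaction term, adjusted p = 0.015, with 1.24% of genes called), a call lost without tropicamide replicate 1 (adjusted p = 0.065), tropicamide replicate 2 (0.080) or saline replicate 1 (0.24). The stress-response genes Junb (-0.77), Egr1 (-0.70) and Fos (-0.50) fell in the class. The summed markers of pigment epithelium stood at 450, 504 and 451 CPM in tropicamide and 195, 187 and 202 CPM in saline libraries of the class, without overlap. Depth, cluster make-up, stress genes and these markers moved with the call, and outside the clusters' own values their part was not tested.

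In the other classes tested no member passed. In simulated counts the fit recovered few of the genes changed 1.5-fold. These were 10.4% in cone bipolar-like, 14.9% in endothelial-like and 41.8% in fibroblast-like cells. A member that missed the threshold may therefore still have changed. Cone bipolar-like cells had 0 of 70 by edgeR (1 at an unadjusted p under 0.05, 0.0436% of genes called), with Cox7c, a small subunit of complex IV, at -0.33. Endothelial-like cells had 0 of 75 (2 at an unadjusted p under 0.05, 0.0% of genes called), with Uqcr11 at -0.32, Ndufc2 at 0.35 and Ndufa3 at -0.34. Fibroblast-like cells had 0 of 80 (5 at an unadjusted p under 0.05, 0.0612% of genes called). There Cox8b stood at 2.0, 2.02 and 1.89 CPM in tropicamide and 0.192, 0 and 0.938 CPM in saline libraries (a log2 change of 2.0, adjusted p = 0.23), while the summed markers of pigment epithelium were 424, 347 and 339 CPM in tropicamide and 67.9, 130 and 130 CPM in saline libraries. DESeq2 also called 0 members in each of these 3 classes. Against the change in rod-like cells, the interaction term called 0 of 80 members in cone bipolar-like (4 at an unadjusted p under 0.05, 0.342% of genes called), endothelial-like (0 and 0.171%) and fibroblast-like cells (4 and 1.02%), in edgeR. Over all cells summed, 0 of 80 members passed in edgeR and 3 in DESeq2, with 20 at an unadjusted p under 0.05 in edgeR and 0.01% of genes called.

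The 7 classes with 10 to 29 cells in a library were added to the test after the data were seen, and edgeR and DESeq2 called 0 members in each, though with no low-count filter edgeR called 1 in cluster B23. Smooth muscle-like cells had 11 of 76 members at an unadjusted p under 0.05 and 6 of 76 above 0, with a median of -0.23 against -0.0057 for all genes. The mix of clusters B10 and B27 in that class differed between libraries, and its part in these values was not tested. Of all genes, edgeR called 0.0% there, 0.0267% in cone-like and 1.09% in corneal or conjunctival epithelium-like cells, and 0.0% in the 4 others. At an unadjusted p under 0.05, rod bipolar-like cells had 5, cluster B23 had 4, cone-like and corneal or conjunctival epithelium-like cells 2 each, amacrine-like cells 1 and cluster B16 none. A p that misses the threshold does not show that the groups were alike in these small classes.

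**Figure D5:**
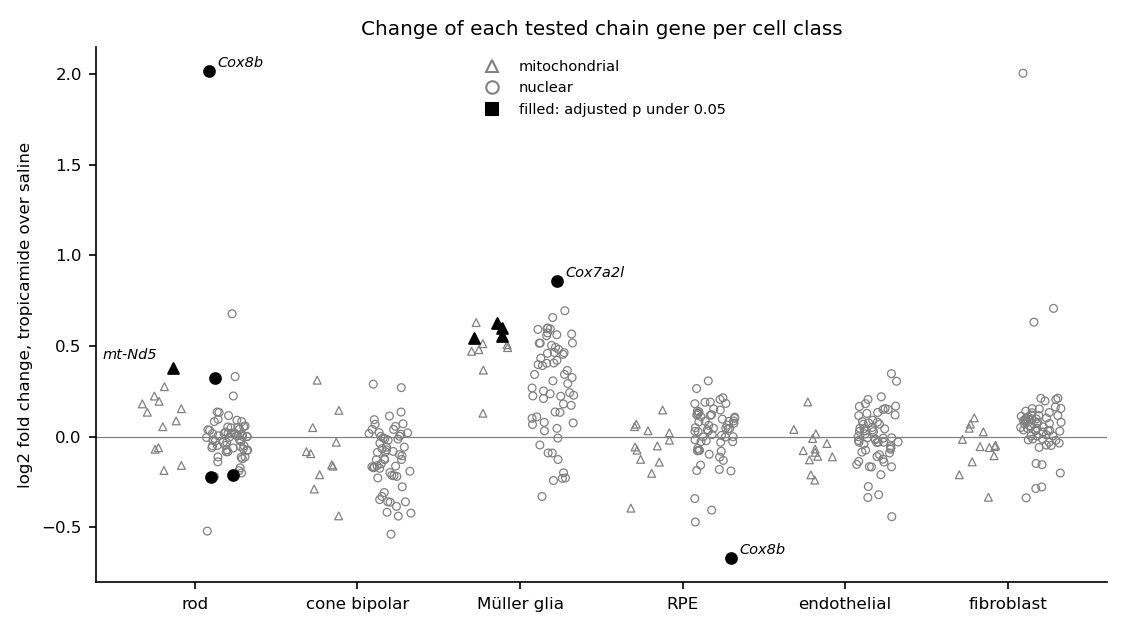
Log2 change of each tested member, tropicamide over saline, in 6 classes, with triangles for mitochondrial and circles for nuclear members, filled where the adjusted p was under 0.05. Cox8b stands at 2.02 in rod-like and -0.67 in RPE-like cells, and Müller glia-like members lie mostly above 0 with a median of 0.38.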

How the data were processed

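The deposited files were raw UMI count matrices of genes by barcodes, 1 per library, with gene symbols. Counting used Cell Ranger 8.0.1 and STAR on GRCm39, per the submitters' processing notes. The members and the other gene lists were chosen with earlier results of these data known. Barcodes under 500 UMIs or 300 genes, or over 20% mitochondrial UMIs, were dropped. Doublets were scored against simulated pairs (0.8% per 1000 barcodes) and removed. Cells were clustered on 30 principal components of 2000 variable genes with Leiden (leidenalg 0.10.2, igraph 0.11.9), leaving out all 84 members. A cluster was named only with at least 3 detected markers of a listed cell type.

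UMIs were summed per library and class and tested with edgeR 4.0.16 (R 4.3.3), by the quasi-likelihood test after filterByExpr and TMM scaling, with Benjamini-Hochberg adjustment over all genes tested and a threshold of 0.05. Classes needed at least 30 cells in every library for the treatment and 10 for levels. The level fits and the comparison of rod-like parts kept the library as a term. DESeq2 1.42.0, other filters and scalings, a replicate block and leaving out each library were the alternatives. The fits were tested on simulated counts. Replicate numbers did not pair libraries by any label or by their deviations.

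Named were all mitochondrial members, the isoform sets, complex II, and by class or comparison the 6 highest and 6 lowest nuclear members past the threshold (mean of at least 20 CPM), or the 3 of smallest p. Between classes up to 4 per direction with a log2 difference of at least 1 were named, and of other lists up to 4. A result that the rule names is not reported here. Promoters are RefSeq windows on GRCm38.p6. CPM in the treatment tests use TMM-scaled library sizes, and CPM elsewhere do not.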

Additional observations from a re-analysis of the deposited data

Results flagged for a closer look

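The change of Cox8b between tropicamide and saline differed between RPE-like cells and the UMIs counted in rod-like cells. In rod-like cells Cox8b stood at 0.628 to 3.91 CPM before TMM scaling, where free RNA from RPE-like cells cannot be told apart from expression. Its log2 change in RPE-like cells minus that in rod-like cells was -2.63 ± 0.26 (SE, edgeR interaction term, adjusted p = 2.0e-20), and it lay between -2.90 and -2.24 when each library was left out in turn. The markers of pigment epithelium in rod-like cells, given with the treatment results, moved with the rod-like side, and their part in it was not tested.

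The response of Cox7a2l differed between Müller glia-like and rod-like cells by 0.79 ± 0.21 (SE, edgeR interaction term, adjusted p = 0.015), with a range of 0.70 to 0.87 when each library was left out. The call was lost without tropicamide replicate 1 (adjusted p = 0.065), tropicamide replicate 2 (0.080) or saline replicate 1 (0.24). The share of cluster B20 and the markers of pigment epithelium in the Müller glia-like class moved with it.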

How the results depend on the processing

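Set against the other classes, nuclear members turned with DESeq2 size factors to 16 higher and 7 lower in amacrine-like (against 6 and 18), 20 and 9 in rod bipolar-like (against 6 and 26) and 8 and 27 in smooth muscle-like cells (against 22 and 11). Mitochondrial members went to 5 higher and 4 lower in rod bipolar-like cells (against 2 and 7). No treatment result recomputed under the alternatives reversed. The count of Müller glia-like members called between tropicamide and saline, 5 as reported, was 8 with the replicate block, 1 with mitochondrial genes left out, 0 with at most 10% mitochondrial UMIs, 0 with at least 1000 UMIs, 0 in cluster B9, 0 in cluster B20, 0 with cluster B37 added and 0 to 8 without 1 library. With no low-count filter the count was 8 in rod-like cells, against 5, 2 in fibroblast-like cells, against 0, and 1 in cluster B23, against 0. Without 1 library it was 2 to 7 in rod-like, 0 to 1 in fibroblast-like and 1 to 2 in RPE-like cells, where cluster B0 alone gave 0. DESeq2 called 3 members over all cells, against 0. Members whose change differed from that in rods numbered 1 to 3 without 1 library, against 2. The single nuclear member lower in the highest part of rod-like cells became 0 with at least 1000 UMIs, 0 without doublet removal and 0 to 1 without 1 library. DESeq2 size factors made 1 member lower in RPE-like cells than in other classes, against 0. The mitochondrial share of cone-like cells, 4.94%, was 5.65% with no mitochondrial limit and 4.02% with at most 10%, that of Müller glia-like cells, 1.98%, was 1.46% with at most 10%, and the nuclear share of RPE-like cells, 3.52%, was 3.26% without doublet removal. Replicate numbers did not pair the libraries (correlations of deviations in rods -0.04, -0.11 and -0.26), and the block gave 7 calls in rod-like cells, with Ndufb2 at an adjusted p of 0.059. Where no value or construction of the alternative shows the cause, the cause was not tested. With 3 pools a group, small classes limit what can be detected.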

Other observations

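Clusters that stayed unnamed also held mitochondrial RNA. In cluster B24, 139 cells, mitochondrial members made up 5.40% of UMIs in tropicamide and 6.24% in saline libraries, and its ratio of mt-Co1 to mt-Atp6 UMIs was 0.254 to 0.411, against 0.244 to 0.284 in rod-like cells. In cluster B25, 134 cells, the share was 7.78% in tropicamide and 10.9% in saline libraries. The muscle-type subunit gene Cox6a2 had 29 of its 59 UMIs in cluster B25. Among cone-like cells, cluster B21 held 10.95% in tropicamide and 12.1% in saline libraries, against 4.38% and 4.14% in cluster B8.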
